A study of Arabidopsis thaliana with 7 samples.

Results

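UDP-glycosyltransferases (UGTs) of Arabidopsis thaliana were followed across 7 Affymetrix ATH1 arrays, a 1-colour platform with probe sets designed against plant transcripts. A gene was taken as a member when a probe set annotated to 1 gene carried a symbol made of UGT and a number, and the probe set with the highest mean signal stood for the gene. The late anthocyanin genes UF3GT and AT4G14090 were left out. This gave 47 genes of the 13350 with such a probe set, and RefSeq holds 58 genes with a symbol of that form. Each of the 47 had a single probe set. Of these, 30 reached a signal of 100 on at least 2 arrays and were tested, and 17 did not.

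The arrays measured RNA of whole seedlings that the titles give as untreated. There were 4 arrays of Col-LUC and 1 of C24-LUC, wild types in the natural strains Col and C24 that both carry LUC in their names, and 2 arrays of sta1, a mutant whose strain the sample labels do not give. Seedlings were 2 weeks old and had grown at 22 °C on agar with 3% sucrose with a light period of 16 h followed by 8 h of dark. The growth text of both sta1 samples names ice1, another mutant, and the titles were followed. The series title describes STA1 as a nuclear protein needed for pre-mRNA splicing. Its own level was not analysed here, so the sta1 label was not checked against it.

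UGTs transfer a sugar from a UDP-sugar, most often UDP-glucose, to small acceptor molecules, which changes their solubility, activity and place of storage. In Arabidopsis the acceptors include hormones, flavonoids, monolignols, glucosinolate precursors and foreign compounds, and the enzymes are numbered by sequence families that are joined into lettered groups. Group D (family 73) is known for work on foreign compounds and stress-related phenolics, group E (71, 72 and 88) for phenolics and monolignols, group F (78) for flavonoids, group H (76) for cytokinins and defence compounds, and group L (74, 75 and 84) for auxin, salicylate, glucosinolate precursors and hydroxycinnamate esters. No value below tests an enzyme activity or a metabolite.

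Arrays were alike in overall level, with median signals from 207.8 to 215.7. Col-LUC 1 shared its chip lot with both sta1 arrays and its hybridisation session with sta1 1, C24-LUC was alone in its lot, and the log of Col-LUC 4 names no lot. The measured leaf markers LHCB4.1, PRK, PSAN and RCA, 4 of 8 listed, had summed signals of 34543 and 37178 on the sta1 arrays and of 48977 to 58589 on the wild-type arrays. The 3 measured root markers of 5 listed, EXPA18, EXPA7 and PYK10, summed to 9906 and 11490 in sta1 and to 10294 to 14437 in wild type. PYK10 made up most of the root sum, with 9532.9 and 11040.5 in sta1. The log2 differences of EXPA18, EXPA7 and PYK10 between sta1 and wild type were -0.31, 0.19 and -0.19. Leaf and root transcripts were thus both measured. In RNA of whole seedlings, fewer cells of a type and less RNA per cell cannot be told apart, and the part of the lower leaf marker sum in the UGT values was not tested.

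The first comparison asked which UGT transcripts differ between sta1 and the 5 wild-type arrays. UGT73B4, UGT87A2, UGT73C1, UGT78D1 and UGT78D2 had differences of at least 2-fold, all higher in sta1. Limma called 0 of the 30 tested members after adjustment over all probe sets, where 1.31% of all tested probe sets were called, 0.542% higher and 0.766% lower. A difference of at least 2-fold was seen in 6.23% of all tested probe sets. At an unadjusted p under 0.05 limma counted 5 members, 4 of them higher, and over all tested probe sets the share at that p was 23.5%. In 4 members the sta1 arrays exceeded every wild-type array, against 16.7% of all tested probe sets. In 2 members they lay below all of them, against 15.6%. By p and by array order the family was thus near or under the background. The 5 of 30 differences of at least 2-fold exceed its share. Over the 30 tested members the median spread among the Col-LUC arrays was also higher than over all tested probe sets, as given below. The part of that spread in the excess was not tested. Of the 5 members with such a difference, UGT73C1 and UGT73B4 met the filter only with the sta1 arrays. UGT73C1 had every Col-LUC value at the floor and hence no spread there. UGT78D1 reached 2-fold only with C24-LUC among the wild types, and was 1.57-fold higher than Col-LUC alone. No conclusion is drawn from this excess. Signals under 50 were set to 50 before log2, and every difference here is on that log2 scale unless a signal or a fold is named.

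**Figure D1:**
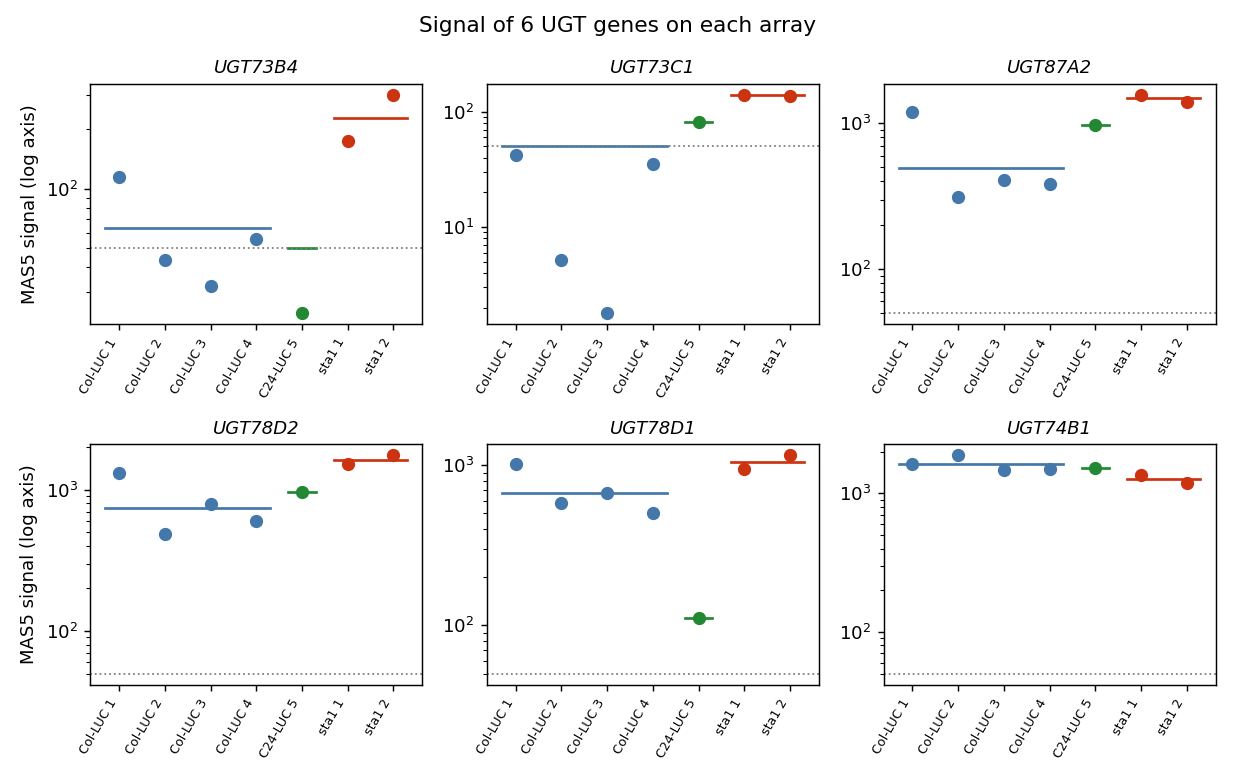
MAS5 signal (log axis) of 6 UGT genes on each of the 7 arrays, with a point per array in blue for Col-LUC, green for C24-LUC and red for sta1, a line at each group's mean of log2 values after the floor, and a dotted line at the floor of 50. UGT73B4, UGT73C1, UGT87A2 and UGT78D2 were higher on both sta1 arrays than on all wild-type arrays, while Col-LUC 1 was the nearest Col-LUC array in each of these 4.

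Group D held the members with the smallest p-values. UGT73B4, known for conjugating small phenolic compounds and for its induction by foreign chemicals, had signals of 174.5 and 300.5 in sta1. On the Col-LUC arrays 1 to 4 it had 114.2, 43.8, 32.0 and 55.9, and on C24-LUC 23.5. Both sta1 arrays were thus above every wild-type array, with Col-LUC 1 the closest and 3 wild-type arrays under the floor. Col-LUC 1 was the only wild-type array to reach 100, so the gene met the filter of 2 arrays only with sta1. The difference was 1.92 ± 0.40 (SE, 2 sta1 and 5 wild-type arrays; limma adjusted p = 0.0603). It moved from 2.29 with a floor of 25 to 1.16 with a floor of 100. Without Col-LUC 1 it was 2.16 and passed with an adjusted p of 0.0123, but no wild-type array then reached 100, so that the gene entered through the sta1 arrays alone. It was 0.61 for sta1 1 minus Col-LUC 1, which were hybridised in 1 session.

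UGT73C1, which conjugates cytokinins and reduced trinitrotoluene in enzyme assays, had signals of 140.9 and 138.0 in sta1. On Col-LUC 1 to 4 it gave 42.4, 5.2, 1.8 and 35.2, all under the floor, and on C24-LUC 81.9. The groups did not overlap, and the gene entered the test only through the sta1 arrays, since no wild-type array reached 100. Its difference from wild type was 1.34 ± 0.29 (limma adjusted p = 0.0659). Set against Col-LUC alone, sta1 exceeded the floor by 2.79-fold, a lower bound (1.48 ± 0.24, adjusted p = 0.0441 by limma). UGT73C1 was the only member called in that comparison, where 1.26% of all tested probe sets were. All 4 Col-LUC values were set to the floor there and had no spread of their own, so this call has no measured error on the Col-LUC side. Within the session, sta1 1 exceeded Col-LUC 1 by at least 1.49. Blocking on chip lot gave at least 1.48 (adjusted p = 0.266), a value that the floor fixes. With a floor of 25 in place of 50 the difference from wild type was 1.89, and with a floor of 100 it was 0.48.

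The other tested members of group D gave smaller values. UGT73B5, linked to resistance against bacterial pathogens, had signals of 126.9 and 178.2 in sta1 and of 48.0 to 152.3 in wild type. The groups overlapped, and the difference was 0.76 ± 0.40 (adjusted p = 0.293), against -0.26 within the session. UGT73B1 had 283.4 and 342.8 in sta1 within a wild-type range of 193.6 to 479.3, and a difference of 0.16 ± 0.33 (adjusted p = 0.793). UGT73C2, UGT73C7 and UGT73D1 stayed under a signal of 100 on every array.

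UGT87A2, the only member of group J measured and known for a part in flowering time, had signals of 1577.4 and 1392.5 in sta1. Col-LUC 1 to 4 gave 1202.7, 311.9, 410.3 and 383.7, and C24-LUC 968.8. Both sta1 arrays were highest, but Col-LUC 1 and C24-LUC lay nearer to them than to the remaining Col-LUC arrays. The difference from wild type was 1.39 ± 0.52 (limma adjusted p = 0.166). It was 0.39 within the session, 0.30 when chip lot was the block and 1.67 without Col-LUC 1.

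In group F, UGT78D2, the flavonoid 3-O-glucosyltransferase, had signals of 1513.6 and 1749.5 in sta1. On Col-LUC 1 to 4 they were 1310.3, 484.9, 786.5 and 600.6, and on C24-LUC 967.9. Again the sta1 arrays were above all others and Col-LUC 1 came next. The difference was 1.06 ± 0.35 (limma adjusted p = 0.130). It passed without Col-LUC 1, at 1.25 with an adjusted p of 0.0399, and was 0.21 within the session.

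UGT78D1, the flavonol 3-O-rhamnosyltransferase, had its lowest signal in C24-LUC. Its signals were 952.7 and 1154.1 in sta1, 1019.3, 581.2, 673.1 and 503.1 on Col-LUC 1 to 4, and 111.8 on C24-LUC. The sta1 and Col-LUC ranges overlapped. With C24-LUC among the wild types the difference of sta1 was 1.16 ± 0.72 (limma adjusted p = 0.360). Set against Col-LUC alone it was 0.65 ± 0.28 (adjusted p = 0.203), and it was -0.10 within the session. UGT78D3, a flavonol arabinosyltransferase beside UGT78D2 in the genome, stayed between 2.3 and 21.5 on all arrays.

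**Figure D2:**
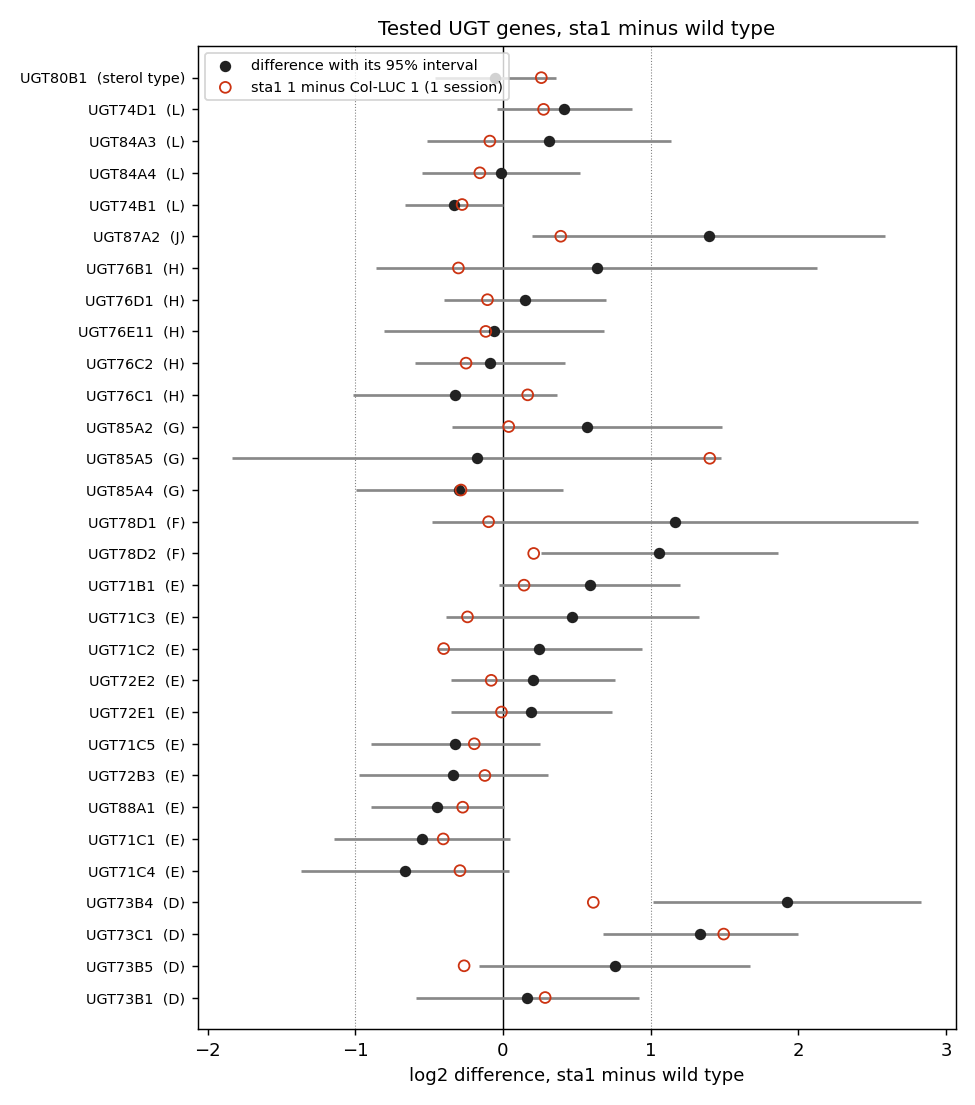
Log2 difference between sta1 and wild type for the 30 tested UGT genes, by UGT group (letter in brackets), as a filled point with its unadjusted 95% interval from limma; open red circles give sta1 1 minus Col-LUC 1 from their shared hybridisation session, and dotted lines mark 2-fold. UGT73B4 has the highest difference at 1.92 and an open circle at 0.61, while UGT73C1 has its point at 1.34 and an open circle at 1.49, where Col-LUC 1 is at the floor.

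Among members with a negative difference, UGT74B1, the S-glucosyltransferase of glucosinolate core synthesis, had the smallest p. Its signals were 1355.2 and 1196.1 in sta1, 1641.7, 1885.0, 1475.5 and 1508.4 on Col-LUC 1 to 4, and 1530.8 on C24-LUC. Both sta1 arrays lay below all wild-type arrays by a small step. The difference was -0.33 ± 0.14 (limma adjusted p = 0.212), with a 95% interval from -0.66 to just under 0, and it was -0.28 within the session.

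UGT88A1 of group E had signals of 2339.1 and 2527.9 in sta1, below a wild-type range of 2774.8 to 4459.9. Its difference was -0.44 ± 0.20 (adjusted p = 0.219) and -0.27 within the session. UGT71C4 had the lowest difference of the family, -0.67 ± 0.31 (adjusted p = 0.236), with signals of 601.1 and 589.3 in sta1. On Col-LUC 3 it had 598.3, between these, and on the other wild-type arrays 735.5 to 1335.9, so the groups overlapped at that array. UGT71C1, which acts on plant phenolics, had 142.4 and 101.1 in sta1 against 130.1 to 230.2 in wild type, and a difference of -0.55 ± 0.26 (adjusted p = 0.244).

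Of the other members that act on hormones, UGT71C5, which forms the glucose ester of abscisic acid, had a difference of -0.32 ± 0.25, with signals of 414.1 and 343.7 in sta1 and 350.5 to 679.2 in wild type. The cytokinin N-glucosyltransferases UGT76C1 and UGT76C2 had differences of -0.32 ± 0.30 and -0.09 ± 0.22. For UGT76C2 the 95% interval ran from -0.60 to 0.42, which leaves out a change of 2-fold. UGT74D1, an auxin glucosyltransferase, had signals of 1745.3 and 1391.4 in sta1 against 934.8 to 1442.6 in wild type. Its difference was 0.42 ± 0.20 (limma adjusted p = 0.251), and sta1 2 lay within the wild-type range.

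Among members linked to defence, UGT76B1 had the widest interval. UGT76B1, which glucosylates isoleucic acid and salicylate, had 300.1 and 359.6 in sta1 within a wild-type range of 58.7 to 369.9. Its difference of 0.63 ± 0.65 had a 95% interval from -0.86 to 2.13, which holds no change as well as a rise of more than 2-fold. UGT76D1, which acts on dihydroxybenzoic acids, had 106.0 and 104.4 in sta1 within 71.9 to 114.0, and a difference of 0.15 ± 0.24. UGT76E11 was at -0.06 ± 0.33.

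No tested monolignol or hydroxycinnamate member passed. UGT72E2 and UGT72E1, which glucosylate monolignols, had differences of 0.20 ± 0.24 and 0.19 ± 0.24. Both sta1 arrays lay within the wild-type range of 636.9 to 1240.0 for UGT72E2 and of 884.7 to 1643.0 for UGT72E1. UGT84A3 and UGT84A4, which form hydroxycinnamate esters, were at 0.31 ± 0.36 and -0.01 ± 0.23. For UGT84A3 the 95% interval ran from -0.52 to 1.14, which holds a rise of more than 2-fold. The sterol glucosyltransferase UGT80B1 was at -0.05 ± 0.18, with a 95% interval from -0.46 to 0.36.

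The remaining tested members were UGT71B1 (0.59 ± 0.27), UGT85A2 (0.57 ± 0.40), UGT71C3 (0.47 ± 0.37), UGT71C2 (0.25 ± 0.30), UGT85A5 (-0.18 ± 0.72), UGT85A4 (-0.30 ± 0.31) and UGT72B3 (-0.34 ± 0.28), none of which passed. In 15 of the 30 tested members the 95% interval of the difference lay within 2-fold in both directions. For the other 15 it reached beyond 2-fold in at least 1 direction.

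Set side by side, the UGT groups differed in their medians. Group D had a median difference of 1.05 over 4 tested members of 7, all positive, and group F of 1.11 over 2 of 3, both positive. Group E had -0.06 over 10 of 14, with 5 positive and 5 negative. Group H had -0.06 over 5 of 8, group G -0.18 over 3 of 5 and group L 0.15 over 4 of 8. All tested members together had a median of 0.18, with 17 of 30 positive, beside 0.01 and 50.8% over all tested probe sets. In group D, UGT73C1 and UGT73B4 met the filter only with the sta1 arrays. So did UGT71C2 in group E, with 102.5 and 103.6 in sta1 and 135.4 on Col-LUC 1, the only wild-type array to reach 100. Medians were therefore also taken over every member at the floor, tested or not. They were 0.47 for group D, 1.06 for group F and 0.12 for all 47 members. The ranges that follow cover the alternatives tried, apart from the session pair given below. The median of group D ran from 0.46 with a floor of 100 to 1.33 with a floor of 25. It was 0.51 without sta1 2, over 3 members, as UGT73C1 then missed the filter. The median of group F ran from 0.18 to 1.35. That of group G ran from -0.45 to 0.22, of group H from -0.12 to 0.15 and of group L from -0.09 to 0.24. These last 3 changed sign. The medians describe these genes only, and no test of a difference between groups was made.

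Within the shared session the order of the groups changed. The median of sta1 1 minus Col-LUC 1 was 0.45 in group D, with 3 of 4 positive, and 0.06 in group F, with 1 of 2 positive. Over all 30 tested members it was -0.10, with 11 positive, beside 49.8% positive over all tested probe sets. The sign was the same as in the full comparison in 18 of the 30. The block on chip lot, in which Col-LUC 4 was taken as a lot of its own and Col-LUC 1 is the sole control, gave medians of 0.71 in group D, 0.18 in group F and -0.05 over all tested members.

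**Figure D3:**
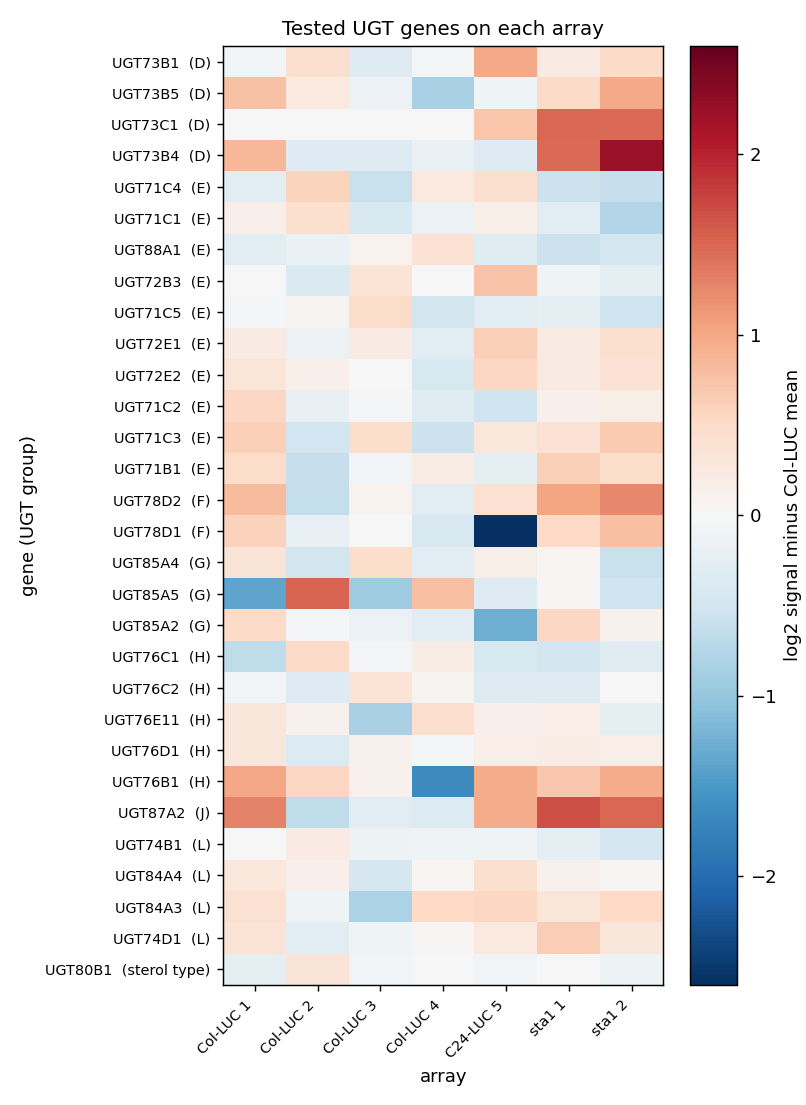
Heat map of the 30 tested UGT genes (rows, UGT group in brackets) on the 7 arrays (columns), coloured by log2 signal after the floor minus the mean of the 4 Col-LUC arrays. Col-LUC 1 shares its colour with sta1 in UGT87A2, UGT78D2 and UGT73B4, and UGT78D1 on C24-LUC is the darkest blue.

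Col-LUC 1 was the highest of the 4 Col-LUC arrays in 15 of the 30 tested members, against 29% of all tested probe sets. The SD of log2 signal over the Col-LUC arrays had a median of 0.39 in the tested members and of 0.24 over all tested probe sets. UGT85A5 had the widest spread, with an SD of 1.37 and signals of 46.7, 370.4, 68.8 and 222.2 on Col-LUC 1 to 4. Its sta1 signals of 132.0 and 90.8 lay inside that range. UGT76B1 came next with an SD of 1.16.

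Many members sit beside relatives in the genome: 31 of the 47 fall into 13 clusters in which neighbouring members are at most 5 protein-coding genes apart in the RefSeq order. The direction shared by neighbours depended on the control arrays. In the full comparison, UGT71C3, UGT71C4 and UGT71C5 of 1 cluster had differences of 0.47 ± 0.37, -0.67 ± 0.31 and -0.32 ± 0.25. UGT71C1 and UGT71C2 had -0.55 ± 0.26 and 0.25 ± 0.30. UGT73B4 and UGT73B5 were both positive at 1.92 ± 0.40 and 0.76 ± 0.40. UGT85A2 was at 0.57 while UGT85A5 beside it was at -0.18, within errors of 0.40 and 0.72. Within the session, UGT71C3, UGT71C4 and UGT71C5 were at -0.24, -0.29 and -0.19. There UGT71C1 and UGT71C2 were at -0.40 and -0.40, and UGT73B4 and UGT73B5 at 0.61 and -0.26. UGT85A2 and UGT85A5 were at 0.04 and 1.40. All 47 probe sets have names ending in _at, and 3 further probe sets that list a UGT together with another gene were not used. How far a probe set also binds transcripts of close relatives was not tested.

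The second comparison asked how UGT transcripts differ between C24-LUC and Col-LUC. UGT78D1 had on C24-LUC the signal of 111.8 given above, 5.99-fold below Col-LUC (-2.58 ± 0.36, SE, 1 and 4 arrays, limma adjusted p = 0.0213). It was the only one of the 30 tested members to be called, where 1.37% of all tested probe sets were called, 1.16% lower and 0.204% higher. Without Col-LUC 3 the adjusted p was 0.0714, and without either sta1 array, which lend their spread to the fit, it was 0.0734 and 0.0742. The difference stayed between -2.72 and -2.38 with any 1 array left out. Whether the UGT78D1 probe set matches the C24 sequence was not tested, so the lower signal is not read as less transcript. UGT78D2, the other measured flavonoid enzyme of the group, had a difference of 0.39 ± 0.47 (adjusted p = 0.814), with 967.9 on C24-LUC inside the Col-LUC range of 484.9 to 1310.3.

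UGT85A2 had the next lowest difference, -1.27 ± 0.32 (limma adjusted p = 0.143). It had a signal of 297.3 on C24-LUC and of 582.2 to 1004.0 on Col-LUC, so C24-LUC was below all Col-LUC arrays. UGT71C2 followed at -0.51 ± 0.38, UGT76C1 at -0.40 ± 0.40 and UGT76C2 at -0.34 ± 0.28, none of them called. UGT73B1 was highest, at 0.98 ± 0.29 (adjusted p = 0.214), with 479.3 on C24-LUC above a Col-LUC range of 193.6 to 325.5. After it came UGT87A2 (0.97 ± 0.64), UGT76B1 (0.97 ± 0.85), UGT72B3 (0.74 ± 0.28) and UGT73C1 (0.71 ± 0.31). The value of UGT73C1 is a lower bound, since every Col-LUC signal was set to the floor and had no spread. With 81.9 on C24-LUC, it met the filter only through the sta1 arrays. UGT87A2 passed only without Col-LUC 1, at 1.40 with an adjusted p of 0.0279.

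All 3 tested members of family 72 lay above every Col-LUC array on C24-LUC. UGT72B3 had a signal of 370.6 there against 170.9 to 282.7, UGT72E1 1643.0 against 884.7 to 1254.7 and UGT72E2 1240.0 against 636.9 to 1065.2. None passed, with limma adjusted p-values of 0.333, 0.371 and 0.499. In all, 7 tested members lay above the Col-LUC arrays and 5 below, where 24.9% and 20.8% of all tested probe sets did. At an unadjusted p under 0.05 limma counted 5 members, against 12.5% of all tested probe sets. The median over the tested members was 0.15, with 17 positive, beside 0.03 and 54.2% over all tested probe sets.

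**Figure D4:**
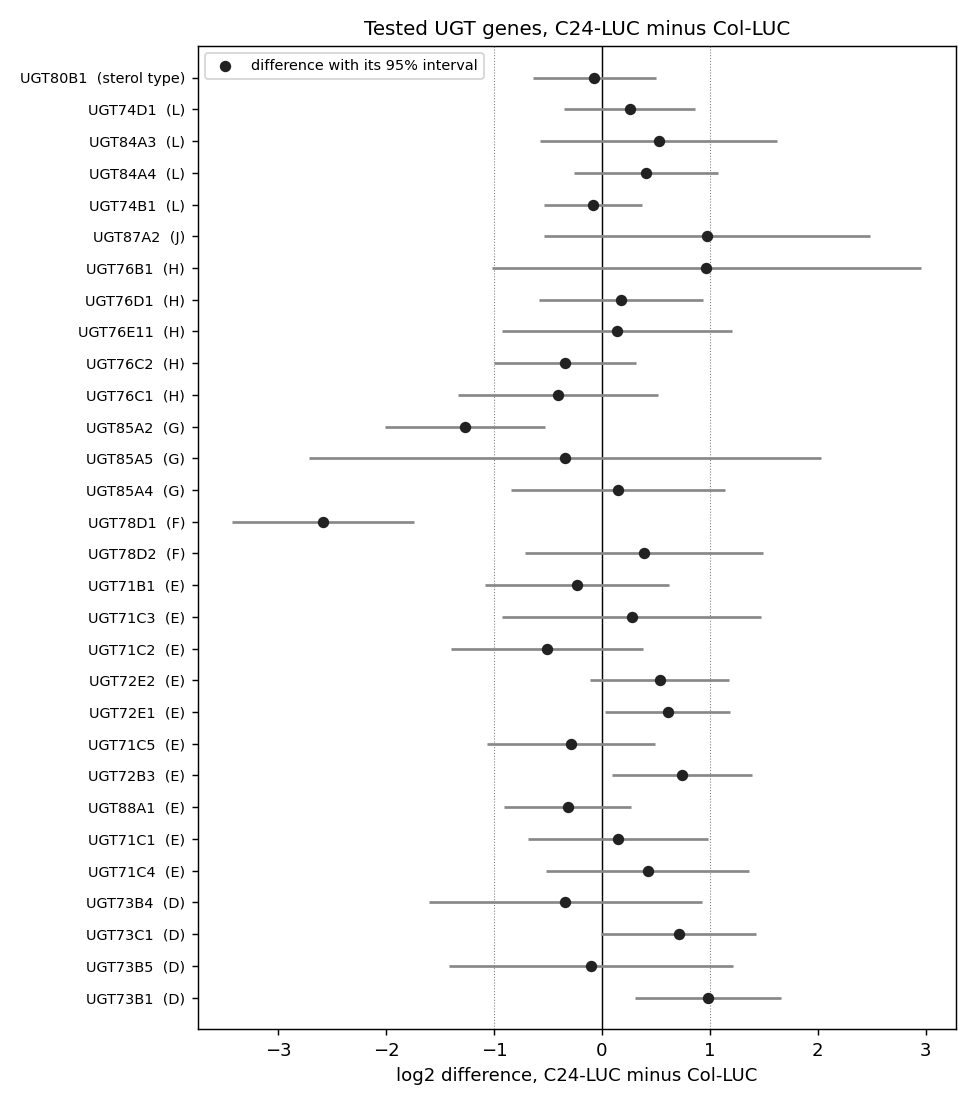
Log2 difference between the C24-LUC array and the 4 Col-LUC arrays for the 30 tested UGT genes, by UGT group (letter in brackets), as points with unadjusted 95% intervals from limma, in which the single C24-LUC array is assumed to vary like the other groups. UGT78D1 lies apart at -2.58 and UGT85A2 follows at -1.27.

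Since C24-LUC has a single array, alone in its lot, strain, array, lot and session cannot be told apart. How well the probe sets match C24 transcripts was not tested. On the C24-LUC array the ratio of the 3 prime to the 5 prime actin control probe set was 1.54. It was 7.09 to 9.09 on the Col-LUC arrays and 6.78 and 10.1 on the sta1 arrays. The 3 prime signal was 856.6 on C24-LUC against 4804.6 to 5267.3 on the others. The 5 prime signal of 555.2 on C24-LUC lay within the 493.3 to 729 of the others. The part of this in the UGT values was not tested. For 7 of the 30 members the 95% interval of the strain difference lay within 2-fold.

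Of the 17 members not tested, 16 stayed under a signal of 100 on every array. UGT72E3, the third monolignol member of its family, reached 104.3 on Col-LUC 2 and 8.6 to 33.8 on the other arrays. The group of 17 also held the salicylate enzyme UGT74F1, the abscisic acid enzyme UGT71B6, the auxin enzyme UGT84B1 and the sinapate enzyme UGT84A1. For 7 of them every array lay under the floor of 50. UGT74F1, UGT71B5 and UGT73C7 had higher signals on both sta1 arrays than on all wild-type arrays, at 78.3 and 60.2, 67.1 and 81.4, and 59.1 and 80.7. Their highest wild-type signals were 45.8, 52.5 and 40.4, and no test was made at these levels. UGT78D3 had the same order with every array under the floor, at 21.5 and 17.8 in sta1 against at most 10.9 in wild type. Among all tested probe sets 16.7% had that order, and the share among those not tested was not taken.

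A few further UGTs appear in the annotation under another symbol and were outside the rule. GT72B1, the UGT72B1 of RefSeq that acts on chlorinated phenols and anilines, had 632.7 and 326.2 in sta1 against 620.3 to 948.2 in wild type. Its difference of -0.77 did not pass (limma adjusted p = 0.141). SGT, the sterol glucosyltransferase UGT80A2, was at -0.23 (adjusted p = 0.375), and IAGLU, an indole-3-acetate glucosyltransferase, at -0.67 (adjusted p = 0.195). AT5G54010, or UGT79B6, stayed at 17.6 and under on all arrays.

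Glutathione transferases, which conjugate foreign and reactive compounds beside the UGTs, were measured in 13 genes, of which 11 were tested. Limma called 0 of them in either comparison, and 5 had an unadjusted p under 0.05 for sta1, where 23.5% of all tested probe sets did. For sta1, 4 were called with array weights and 2 without Col-LUC 1, where 3468 of 15673 and 1382 of 15588 probe sets were called in all. For C24-LUC 1 was called without Col-LUC 1 and 1 without a filter, where 482 of 15588 and 392 of 22746 probe sets were. Their median difference in sta1 was -0.26, with 4 positive. Of the 5 with an unadjusted p under 0.05, 2 were higher in sta1. These were GSTU25 at 2.55 ± 0.65 (limma adjusted p = 0.0848) and GSTU22 at 1.14 ± 0.31 (adjusted p = 0.0951), with the smallest p. GSTU18 came next and was lower, at -1.14 ± 0.32 (limma adjusted p = 0.0961). GSTU28 at -0.69 ± 0.21 and GSTU26 at -1.07 ± 0.46 were lower as well. Within the session GSTU25 and GSTU22 differed by 0.44 and 0.52, and GSTU18, GSTU28 and GSTU26 by -0.35, -0.52 and -0.85.

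The lists of steps that make UGT acceptors and donors were covered thinly. Of 18 glucosinolate genes 1 was measured, BCAT4 of methionine chain elongation, at -0.24 ± 0.18 (limma adjusted p = 0.438). HCT, the hydroxycinnamoyl transferase, stood for 12 phenylpropanoid genes at 0.05 ± 0.14 (adjusted p = 0.865). USP, a UDP-sugar pyrophosphorylase, stood for 13 genes of UDP-sugar supply at -0.37 ± 0.14 (adjusted p = 0.173). The flavonoid list of 9 genes, the seed markers and the floral markers had no probe set annotated to 1 gene, so flavonoid synthesis beside UGT78D1 and UGT78D2 was not analysed here.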

How the data were processed

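RNA of 7 seedling samples was measured on 1 array each. Per the labels and the submitters' processing notes, the authors deposited the intensity of each probe set as a MAS5 signal, with global scaling to 500 and no version given. After 64 control probe sets were left out, 22746 remained. Signals under 50 were set to 50 and taken to log2, and 15673 probe sets, those reaching 100 on 2 or more arrays, were tested with limma 3.58.1 in R 4.3.3 (lmFit, eBayes with an intensity trend), with Benjamini-Hochberg adjustment over all of them and a threshold of 0.05. For sta1, 2 arrays were set against 5 wild-type arrays, and C24-LUC was tested in a fit of 3 groups. The number of arrays limits the precision. No label states that the samples are separate cultures. The p-values therefore speak only of how these samples vary, perhaps for technical reasons. The procedure was tested on simulated data. Chip lot and session come from the file headers of the array logs.

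Probe sets were named from the supplied platform annotation, where 13513 had 1 gene and 503 several. All 47 members matched the RefSeq table (TAIR10.1) by gene ID. Coordinates and sequences were not used here. Named genes were those called, the 10 largest differences in each direction for sta1 and the 5 largest for C24-LUC, and members with a known acceptor, with the 2 smallest p-values per related list without a call. Glutathione transferases with an unadjusted p under 0.05 by limma for sta1 were also named. The members, lists and tests were chosen with earlier results of these data known. The alternatives covered the floor, the filter, the normalization, the trend, array weights, each array left out, the wild-type arrays used, the probe set and symbol rules, the replicate block and the chip lot.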

Additional observations from a re-analysis of the deposited data

Results flagged for a closer look

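After the floor, 1 Col-LUC array stood far from the other 3 in 2 of 29 tested members with any spread above it, where chance gives 1.45. The signal of UGT73B4 was 114.2 on Col-LUC 1, against at most 55.9 on the others with the floor at 50. Before the floor the others measured 43.8, 32.0 and 55.9, and the flag of UGT73B4 depends on the floor. The signal of UGT87A2 was 1202.7 on Col-LUC 1 against 311.9 to 410.3. In both genes the array that stood apart is the one of the chip lot of sta1, and the cause was not tested.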

How the results depend on the processing

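The number of UGT members called for sta1 was 0 with a floor of 25, without a filter, with the filter on 1 array, with quantile normalization, median centring, the other symbol rules and the chip lot block, which called 0 of all 15673 probe sets (14.6% had an unadjusted p under 0.05). It was 2 with a floor of 100 (UGT73B4, UGT73C1), where 266 of 15673 probe sets were called in all. That floor replaced every wild-type value of UGT73C1, and every one of UGT73B4 but Col-LUC 1, which removes or narrows their spread. The count was 1 (UGT73C1) without the intensity trend, where 139 probe sets were called in all. It was also 1 (UGT73C1) with Col-LUC alone as wild type in either fit, where 198 and 193 were. With array weights it was 5, where 3468 probe sets were called in all. With 1 array left out it lay between 0 and 3, the 3 (UGT73B4, UGT73C1, UGT78D2) without Col-LUC 1, where 1382 of 15588 probe sets were called in all. Without sta1 1 or sta1 2, limma called 0 probe sets in all, with 11% and 9.33% at an unadjusted p under 0.05. For C24-LUC the count of 1 became 2 without a filter, where UGT71B6 (0.029 ± 0.0010, SE) and UGT73C1 (0.71 ± 0.015), with all Col-LUC values at the floor and hence no spread, passed in place of UGT78D1, and lay between 0 and 2 with 1 array left out. The replicate block, over titles' numbers that share only a number (r = 0.192 and -0.007 between deviations of sta1 and Col-LUC 1 and 2), called 0 of 30 and 0 of all 15537 probe sets (14.2% at that p). It turned UGT71C2 to -0.029 and UGT76C2 to 0.053. No paired analysis was possible for C24-LUC because it shares no replicate number with Col-LUC, and leaving out its only array gives no value.

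All sign changes were in members that did not pass. For sta1 the chip lot block turned UGT72E2 to -0.0070, UGT73B5 to -0.018, UGT71C3 to -0.085, UGT76D1 to -0.12, UGT76B1 to -0.17, UGT85A2 to -0.17, UGT71C2 to -0.39, UGT80B1 to 0.19, UGT76C1 to 0.25 and UGT85A5 to 1.13. A floor of 100 turned UGT71C2 to -0.044. UGT84A4 was at 0.069 with Col-LUC alone as wild type, 0.039 with array weights and 0.016 with median centring. With 1 array left out, UGT76C2 ranged from -0.26 to 0.085, UGT76E11 from -0.28 to 0.15, UGT80B1 from -0.12 to 0.038, UGT84A4 from -0.14 to 0.069, UGT85A4 from -0.61 to 0.012 and UGT85A5 from -0.50 to 0.22. For C24-LUC, array weights turned UGT73B5 to 0.029 and a floor of 100 UGT71C3 to -0.078. With 1 array left out, UGT73B5 ranged from -0.39 to 0.15, UGT76E11 from -0.14 to 0.29, UGT80B1 from -0.15 to 0.046, UGT85A4 from -0.0050 to 0.30 and UGT85A5 from -0.80 to 0.16. The cause was not tested. Signal near the floor limits UGT73B4 and UGT73C1.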
